A study of Mus musculus with 3 samples.

Results

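Elane-high granulocyte progenitors and promyelocytes of mouse bone marrow, the cells that make the enzymes of the neutrophil's primary granules, were taken from droplet 3' single-cell RNA sequencing by a gate on raw UMI counts (unique molecular identifiers, 1 per captured RNA molecule). A cell entered the gate with at least 10 UMIs of Elane and at least 10 of Prtn3, under 1% of its UMIs from the later granule genes Camp, Ngp, Ltf and Lcn2 together, 0 UMIs of the monocyte receptor gene Csf1r and 0 of the erythroid factor gene Klf1. Of 22376 kept cells in 3 libraries, 680 met these limits and were so chosen by their own measured counts. The gate therefore fixed the levels of these 8 genes in part, and their values are given as a description with no test.

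Marrow of femur and tibia came from male mice aged 6 weeks. Both fusion libraries (replicates 1 and 2) carry the genotype label Ep300-Znf384-V5-HA, a tagged fusion of the acetyltransferase gene Ep300 with the zinc finger gene ZNF384, which recurs in human acute leukaemia; the third library is labelled Wild type. In each library, 5000 live cells of whole marrow and 5000 live lineage-negative cells were mixed after red cell lysis, so shares of cells reflect that mixture and not the marrow. The labels give neither the strain, nor the promoter or cells in which the fusion acts, nor whether libraries are separate animals, so p-values measure only a spread between samples that may be technical. Genotype cannot be told apart from anything else that sets the single wild-type library off.

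Neutrophils arise from committed progenitors that first fill azurophil (primary) granules with serine proteases and myeloperoxidase, then switch to specific and gelatinase granules as they stop dividing. The factors C/EBPα, PU.1 and GFI1 direct the entry into this path, and C/EBPε directs the later granule genes. ELANE (neutrophil elastase), PRTN3 (proteinase 3), CTSG (cathepsin G) and MPO (myeloperoxidase) mark the promyelocyte, and inherited ELANE mutations cause neutropenia.

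Elane (chromosome 10, 79886247 to 79888215, GENCODE M21 on GRCm38) and Prtn3 (chromosome 10, 79874476 to 79883174) are neighbours on the plus strand, with 3073 bases between the end of Prtn3 and the start of Elane. Their promoters are printed because these genes define the cells and their RNA levels moved together from cell to cell; that of Apoe is printed because it is the gene that passed the test on the higher side. Each stretch runs from 250 bases before to 50 bases after the start that RefSeq lists on GRCm38.p6, on the strand of the gene, at chr10:79879417-79879716 (Prtn3), chr10:79886062-79886361 (Elane) and chr7:19699139-19699438, minus strand (Apoe, the first of 3 listed starts). Capitals mark every match, on either strand, to GAGGAA, a PU.1-type core, or to GAAAAA or CAAAAA, the A-rich site type bound by ZNF384.
Prtn3: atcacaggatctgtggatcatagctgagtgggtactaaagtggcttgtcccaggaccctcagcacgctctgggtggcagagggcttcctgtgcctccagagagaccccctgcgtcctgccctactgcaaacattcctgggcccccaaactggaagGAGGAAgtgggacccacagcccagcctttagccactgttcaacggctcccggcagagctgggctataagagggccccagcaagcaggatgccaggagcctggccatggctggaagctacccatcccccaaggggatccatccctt
Elane: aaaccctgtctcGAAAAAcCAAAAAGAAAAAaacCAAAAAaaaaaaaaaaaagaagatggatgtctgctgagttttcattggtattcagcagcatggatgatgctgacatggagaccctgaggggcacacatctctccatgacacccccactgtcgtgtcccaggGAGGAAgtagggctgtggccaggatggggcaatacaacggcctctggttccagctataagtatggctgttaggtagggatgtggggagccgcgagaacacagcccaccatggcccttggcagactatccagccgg
Apoe: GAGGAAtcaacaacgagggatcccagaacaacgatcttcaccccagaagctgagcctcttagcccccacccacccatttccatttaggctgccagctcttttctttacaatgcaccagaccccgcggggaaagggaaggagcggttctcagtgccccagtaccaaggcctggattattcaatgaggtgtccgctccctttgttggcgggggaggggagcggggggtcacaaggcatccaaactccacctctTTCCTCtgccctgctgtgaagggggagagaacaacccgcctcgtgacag
Prtn3 and Elane each held 1 GAGGAA, and the first Apoe start held 1 on each strand; 28.3% of 32851 listed promoters of this length hold at least 1. GAAAAA or CAAAAA matched 4 times in Elane, all on the printed strand and close together, and in neither printed stretch of Prtn3 and Apoe, against 32.3% of all promoters with a match; the other two listed Apoe starts, not printed, held 1 such match each. The C/EBP-type letters TTGCNNAA matched in none of these stretches and in 10.8% of all promoters. A match describes letters only.

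The 3 libraries held 8122 to 9354 barcodes, and 7213 to 7625 cells per library passed the filter of at least 1000 UMIs, 400 genes and at most 10% mitochondrial UMIs. Between any pair of libraries, 19 to 23 barcodes were shared, 0 of them among gated cells. Gated cells were deeply sampled, with a median of 18481 and 20816 UMIs in fusion replicates 1 and 2 and 23462 in wild type, and summed to 2716723, 4030884 and 8385552 UMIs. Median mitochondrial shares of 3.15%, 2.99% and 2.76% were close. Predicted doublets made up 2, 2 and 8 gated cells and were kept in the comparison. A single cell of fusion replicate 2 stood apart: it held 78198 UMIs and 2711 of the 2720 UMIs of the platelet gene Pf4 in that library's gate, and was not a predicted doublet.

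The label was checked against its markers. Mpo and Ctsg, which the gate did not use, were detected in 100% of gated cells in each library. Mpo stood at 6351 and 5429 plain CPM (a depth-scaled count, the gene's UMIs over all UMIs summed) in the fusion libraries and 6733 in wild type, and in lymphocytes of the same libraries, which should lack it, at 37.2, 44.7 and 154 CPM. Ctsg stood at 3866, 3342 and 3402 CPM in the gated cells and 29.4, 18.3 and 51.4 CPM in lymphocytes. Summed over the gate, both enzymes stood far above their level in lymphocytes. Cell by cell, 3 of the 352 wild-type gated cells and 0 of the fusion cells held Mpo at or below the lymphocyte level of their library, and 0 cells did so for Ctsg. The Mpo cut-offs were lower in fusion than in wild type. A cell of fusion replicate 2 with 12505 UMIs counted as above on 1 Mpo UMI. Every gated cell held both enzymes, so few cells could fall below cut-offs this low. These counts therefore do not settle the identity of single cells.

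Markers of other cell types were summed in the gate. T and NK cell markers summed to 1.10 and 0.992 CPM in fusion and 7.99 in wild type over 10 genes, with Cd3e at 0 in all libraries. B cell markers summed to 37.9, 36.7 and 40.9 CPM over 10 genes. Plasmacytoid dendritic cell markers, led by Bst2, summed to 229, 206 and 223 CPM over 8 genes. Conventional dendritic cell markers summed to 39.4, 33.7 and 37.3 CPM over 8 genes and eosinophil markers to 30.9, 14.6 and 23.7 over 6. Lymphoid progenitor markers summed to 85.0, 70.5 and 66.1 CPM over 7 genes. Erythroid markers summed to 104, 95.8 and 65.9 CPM over 14 genes, with Alas2 at 0. Basophil and mast cell markers summed to 374, 326 and 291 CPM over 11 genes, and megakaryocyte markers to 23.2, 719 and 14.1 CPM over 10 genes, the middle value carried by the cell rich in Pf4. Mature neutrophil markers, led by S100a8, summed to 6578, 8299 and 7299 CPM, and to 11108, 6809 and 14262 CPM in lymphocytes of the same libraries. The part of any of these in the results below was not tested.

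Gated cells made up a smaller share of kept cells in both fusion libraries than in the wild-type library. They were 145 of 7538 kept cells in fusion replicate 1 (1.92%, Clopper-Pearson 95% interval 1.63 to 2.26) and 183 of 7213 in replicate 2 (2.54%, 2.19 to 2.93). In wild type, 352 of 7625 cells were gated (4.62%, 4.16 to 5.11). Both fusion intervals lay below the wild-type interval. The fusion mean was 2.23% ± 0.434 (SD, n = 2), 0.483 times the wild-type share, and the 2 libraries taken singly gave ratios of 0.417 and 0.550. With 3 labellings the two-sided exact permutation test gave p = 0.3333, the smallest it can give, so the lower share has no significance test behind it. These intervals cover counting error only.

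**Figure D1:**
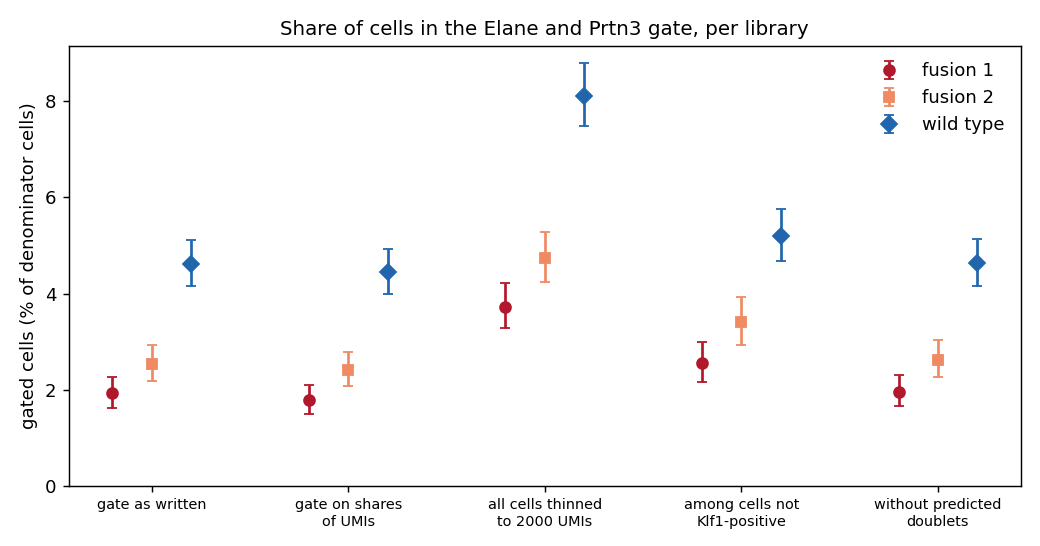
Share of cells in the gate (vertical axis, %) for each library under the gate as written and 4 other settings; bars are Clopper-Pearson 95% intervals. Wild type sits above both fusion libraries in all 5 settings, at 4.62% against 1.92% and 2.54% as written.

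The order of the libraries was the same at equal depth. With every kept cell of at least 2000 UMIs thinned to 2000 UMIs and the Elane and Prtn3 limits lowered to 2, the shares were 3.73%, 4.74% and 8.12%, a ratio of 0.521. Limits of 0 Csf1r and 0 Klf1 UMIs are looser at that depth. This gate held 243, 323 and 565 cells, more than the gate as written, so it is not the same set of cells. Leaving Klf1-positive cells, which were 1851 in fusion replicate 1 and 853 in wild type, out of the denominator gave 0.572, the ratio nearest to 1 of the 8 gate and denominator settings; the lowest was 0.460. Granule-rich neutrophil precursors, the cells that still held 10 Elane UMIs but drew at least 1% of their UMIs from the later granule genes, numbered 114 and 119 in fusion and 104 in wild type. Cells with both Csf1r and Mpo numbered 141, 216 and 359. The lower count was thus seen in gated cells and in Csf1r-positive Mpo-positive cells of both fusion libraries and not in the granule-rich precursors; these differences between populations have no test beyond the 3 libraries.

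The granule, Csf1r and Klf1 limits each removed cells in every library. Of 392 and 510 fusion cells with 10 UMIs of both Elane and Prtn3, 37.0% and 35.9% met the other limits, against 45.2% of 779 wild-type cells. The other limits removed 100, 98 and 95 cells as granule-rich, 138, 214 and 322 with Csf1r, and 34, 53 and 31 with Klf1, with overlaps. Just inside the Elane limit lay 4, 4 and 11 cells with 10 to 12 UMIs and just outside it 6, 9 and 12 cells with 7 to 9 UMIs. The Prtn3 limit had 0, 1 and 1 such cells just outside and 0 just inside in each library. The Csf1r limit had more: 68, 82 and 130 cells failed only through exactly 1 Csf1r UMI, with median Elane of 44, 68.5 and 60.5 UMIs against 88, 152 and 177 inside.

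Within the gate, cells ran from Cd34-positive progenitors, with lower median shares of Elane and Prtn3, to promyelocytes that held Fcnb, a ficolin of later granules. Early cells (at least 1 Cd34 UMI and under 5 Fcnb UMIs) made up 69.0% (interval 60.8 to 76.4) and 63.9% (56.5 to 70.9) of gated fusion cells and 64.5% (59.2 to 69.5) in wild type. Late cells (at least 5 Fcnb UMIs) made up 13.8% (8.63 to 20.5), 18.6% (13.2 to 24.98) and 18.75% (14.8 to 23.2). All these intervals overlapped. They cover counting error within a library only, and a difference in stage mix between genotypes was not tested. The stage limits are raw UMI counts, and median depth in the gate differed, at 18481, 20816 and 23462 UMIs. The part of depth in the stage shares, and in values given by stage, was not tested.

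Elane and Prtn3 climbed from early to late cells in every library, while Mpo stayed nearly level. Elane took a median of 0.318%, 0.395% and 0.512% of a cell's UMIs in early cells of fusion replicate 1, fusion replicate 2 and wild type, and 2.02%, 1.75% and 1.69% in late cells. Mpo took 0.615%, 0.537% and 0.644% in early and 0.621%, 0.488% and 0.725% in late cells. Across single cells, the share of UMIs from Elane and that from Prtn3 had a Spearman correlation of 0.757 (145 cells), 0.856 (183 cells) and 0.873 (352 cells). With Ctsg the correlation was 0.697, 0.644 and 0.625, and with Mpo 0.383, 0.374 and 0.505. These describe cells that share a library and a denominator, and both Elane and Prtn3 were gated.

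Summed over the gate, Elane stood at 8514 and 8032 plain CPM in fusion and 8477 in wild type, and Prtn3 at 6719, 6659 and 8260. The ratio of Elane to Prtn3 was 1.27 and 1.21 in fusion and 1.03 in wild type. In early cells alone Elane stood at 4121 and 5291 CPM in fusion and 5906 in wild type, and in late cells at 22590, 15909 and 16881. Elane was thus lower in both fusion libraries in early cells and not in late cells; no test was made, since the gate used both genes.

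Few genes separated the gated cells of the 2 genotypes past the test. Counts were summed over gated cells per library, and fusion was compared with wild type by edgeR's quasi-likelihood test with Benjamini-Hochberg adjustment over 10456 genes; from here on, CPM are on effective library sizes from TMM normalization unless called plain, and changes are log2 fusion over wild type ± standard error. At adjusted p under 0.05, 1 gene rose and 1 fell (0.00956% of those tested for each direction, 0.0191% together), and 569 genes (5.44%) had an unadjusted p under 0.05. DESeq2 called 1 gene. The 2 fusion libraries alone supply the single residual degree of freedom, and the wild-type library is assumed to vary like them.

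Apoe, which encodes apolipoprotein E, a carrier of cholesterol secreted by macrophages among other cells, rose in the fusion gate. It stood at 115 CPM in fusion replicate 1 and 116 in replicate 2 against 31.7 in wild type. Both fusion values lay well above the wild-type value and beside each other. The change was 1.87 ± 0.18, a 3.65-fold higher level (edgeR adjusted p = 0.0062; chromosome 7, 19696109 to 19699188, minus strand, ENSMUSG00000002985).

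The higher Apoe level was found at each stage and in both neighbouring populations. In plain CPM, early cells held 144 and 146 in fusion against 38.2 in wild type, other cells 93.3 and 44.7 against 18.7, and late cells 29.2 and 15.3 against 10.6. Within the gate, Apoe RNA thus declined from early to late cells in all 3 libraries. Csf1r-positive Mpo-positive cells held 64.4, 66.8 and 20.3 plain CPM and granule-rich precursors 60.6, 35.1 and 5.89. Klf1-positive cells, a richer source, were level at 344, 330 and 339 CPM, and lymphocytes held 47.5, 79.9 and 30.4. Lymphocytes were thus also higher in both fusion libraries. Late cells lay below the lymphocyte level of their own library in all 3 libraries. Of the stages and the neighbouring populations, only early cells lay above it in all 3. The change in the gate was not shown to differ from that in precursors (difference -0.99 ± 0.41, adjusted p = 0.305) or in Csf1r-positive Mpo-positive cells (0.20 ± 0.18, adjusted p = 0.998). The part of free RNA in the Apoe level was not tested.

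Gria3, an X-linked gene for an AMPA-type glutamate receptor subunit best known from neurons, fell in the fusion gate. Its levels were 16.0 CPM in both fusion libraries and 62.2 in wild type, from 46, 62 and 509 UMIs. The change was -1.96 ± 0.18, or 0.258 times the wild-type level (edgeR adjusted p = 0.0062; chromosome X, 41400854 to 41678601, ENSMUSG00000001986). By stage the plain CPM were 22.1 and 17.7 against 68.3 in early cells and 5.83 and 6.81 against 41.7 in late cells. Lymphocytes held 0, 1.35 and 3.72 CPM, a level well under that of the gate. Csf1r-positive Mpo-positive cells held more, at 75.3 and 72.3 against 176, and there the change was smaller (-1.29 ± 0.16; difference -0.68 ± 0.18, adjusted p = 0.0417).

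Without the cell rich in Pf4, the Apoe and Gria3 changes kept their size, at 1.88 and -1.94, but both adjusted p-values became 0.0866 and 0 genes were called (495 at an unadjusted p under 0.05). Over 16 alternatives the direction held in 16 for each gene, and the call held in 10 of the 14 that had a test.

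**Figure D2:**
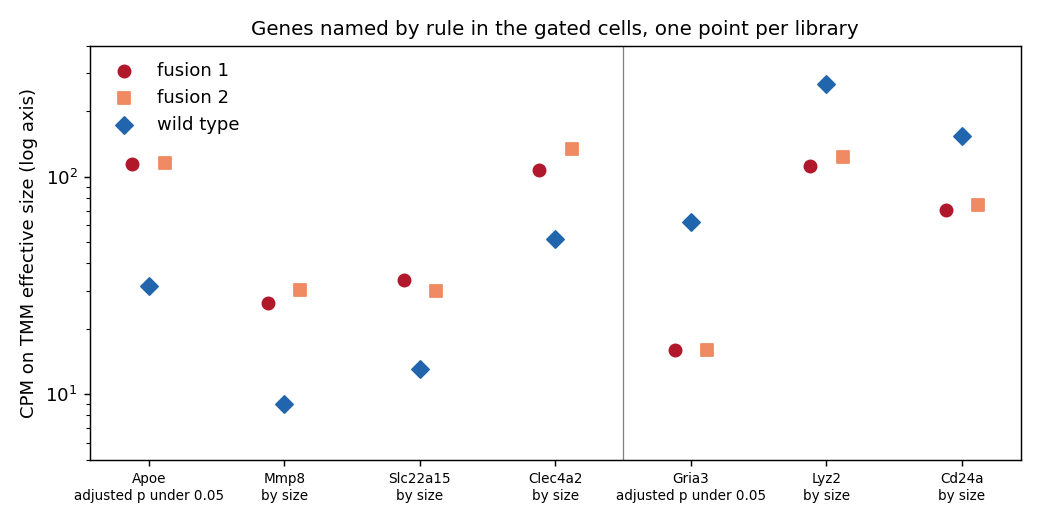
CPM on TMM effective library size (log axis) of the 7 genes named by rule, 1 point per library. Apoe, Mmp8, Slc22a15 and Clec4a2 lie above wild type and Gria3, Lyz2 and Cd24a below it in both fusion libraries; only Apoe (115 and 116 against 31.7) and Gria3 (16.0 and 16.0 against 62.2) passed the adjusted test.

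A further 5 genes met a rule of size without passing the test: both fusion libraries a log2 distance of at least 1 from wild type, which was also at least 3 times their distance from each other, which 75 of 10456 genes met (0.717%). Clec4a2, a C-type lectin receptor of myeloid cells with an inhibitory motif, stood at 108 and 134 CPM in fusion and 51.7 in wild type (1.23 ± 0.20, edgeR adjusted p = 0.0849). Its level was higher in late cells, at 431, 420 and 209 plain CPM, than in early cells, at 18.0, 44.7 and 11.9, and both fusion libraries lay above wild type at each stage. Its change exceeded that in granule-rich precursors (difference 0.63 ± 0.14, adjusted p = 0.00204). Slc22a15, a solute carrier of the organic cation and anion family, stood at 33.7 and 30.0 CPM against 13.1 (1.28 ± 0.21, adjusted p = 0.0878) and was higher at every stage in both fusion libraries.

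Mmp8, neutrophil collagenase, stood at 26.4 and 30.2 CPM against 9.04 (1.65 ± 0.23, edgeR adjusted p = 0.0658). This is 0.470% of its level in granule-rich neutrophil cells, which held 6032, 6145 and 1836 plain CPM, and lymphocytes held 354, 188 and 80.8. In the gate Mmp8 was thus below its level in lymphocytes of the same library, and wild type was the lowest library in both. Lyz2, lysozyme, stood at 112 and 123 CPM against 268 (-1.19 ± 0.18, adjusted p = 0.0756). That is 1.96% of the highest population, and lymphocytes held 679, 137 and 436 plain CPM, an order other than that of the gate. Lyz2 was closer between genotypes in Csf1r-positive Mpo-positive cells (difference -0.71 ± 0.10, adjusted p = 5.52e-10). Cd24a, a small glycosylated surface protein of immature blood cells, stood at 70.4 and 73.9 CPM against 155 (-1.10 ± 0.16, adjusted p = 0.0739), further from wild type than in precursors (difference -0.55 ± 0.16, adjusted p = 0.0355).

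**Figure D3:**
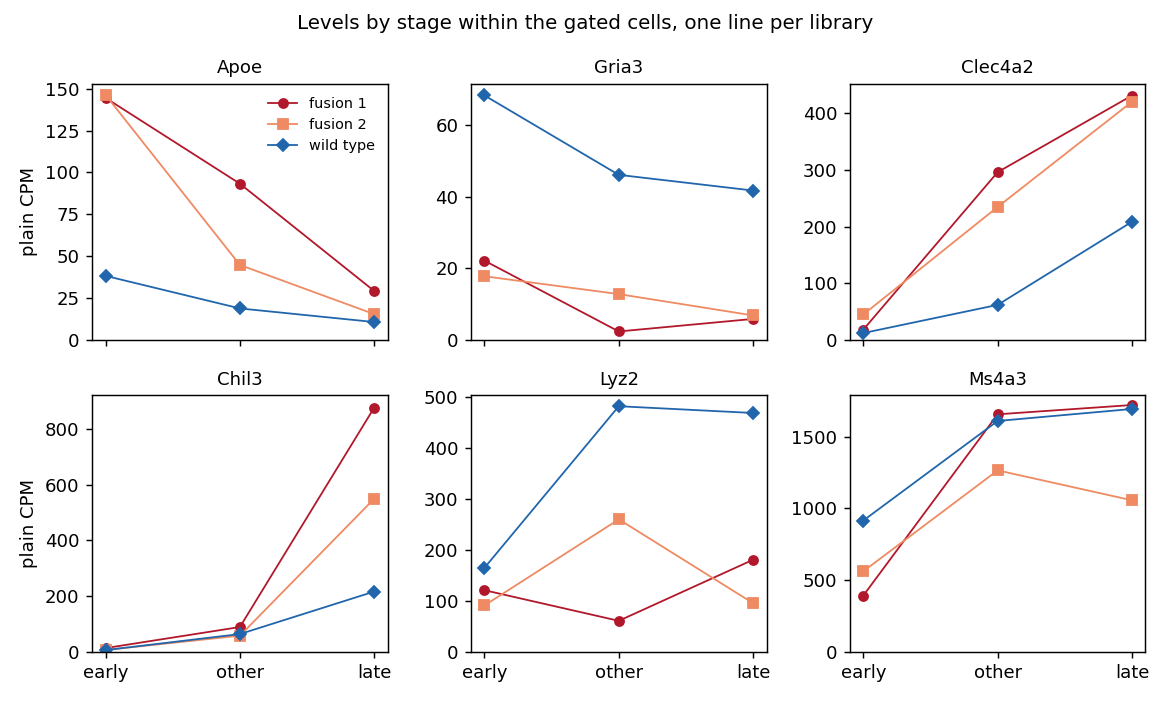
Plain CPM of 6 genes in early, other and late gated cells, 1 line per library. Apoe (early, 144 and 146 against 38.2) and Gria3 (22.1 and 17.7 against 68.3) keep the genotypes apart at each stage, and Clec4a2 and Chil3 have their highest levels in late cells.

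Primary granule genes leaned lower without a call. Of 15 members tested, 0 were called, 1 lay above wild type in both fusion libraries and 11 below, where 32.1% and 32% of all genes did so, and the list's median was -0.25 against 0.000942 for all genes. That median was -0.30 in early cells alone and -0.04 in late cells alone. Ms4a3, a tetraspanning protein of granulocyte and monocyte progenitors, stood at 715 and 773 CPM against 1171 (-0.65 ± 0.19, edgeR adjusted p = 0.548). In early cells it stood at 391 and 561 plain CPM against 914, and in late cells at 1720, 1055 and 1692. Mpo gave -0.25 ± 0.19 and Ctsg 0.03 ± 0.19, with adjusted p = 0.991 and 0.995. Ctsc, the protease that activates elastase and its relatives, gave -0.46 ± 0.17, and Cst7, the inhibitor of that protease, -0.42 ± 0.18. The change of Ms4a3 in Csf1r-positive Mpo-positive cells was larger (-1.65 ± 0.21; difference 0.98 ± 0.10, adjusted p = 1.05e-20).

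Later granule genes moved to both sides, with 8 of 21 above wild type in both fusion libraries, 8 below and a median of -0.06. Each side held 38.1%, near the 32.1% above and 32% below of all genes. Chil3, a chitinase-like protein of promyelocytes and myelocytes, stood at 126 and 97.2 CPM against 48.8 (1.19 ± 0.20, edgeR adjusted p = 0.0904), and in late cells at 877 and 550 plain CPM against 216. Lymphocytes held 281, 94.8 and 168 plain CPM of it. In precursors, where Chil3 is abundant at 4829, 3597 and 3940 plain CPM, the genotypes were close (-0.03 ± 0.30). The difference was 1.23 ± 0.08 (edgeR adjusted p = 5.16e-39, from a single spread estimated for all genes). Gate and precursors were split by later granule genes, whose differences lay on the same side: Camp 0.92, Ngp 0.95, Ltf 1.61 and Lcn2 0.80. The part of that limit in the Chil3 difference was not tested. Fcnb, by contrast, stood at 123 and 205 CPM against 241, and Wfdc21, a protease inhibitor, at 89.9 and 204 against 294, with replicate 1 far below replicate 2 in both.

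Transcription factors of the granulocyte and monocyte paths leaned slightly lower without a call. Of 23 tested, 0 were called, and the median was -0.11 (-0.27 in late cells alone), with members from -1.67 to 0.21. In both fusion libraries 6 were above wild type and 14 below, where 32.1% and 32% of all genes did so. An unadjusted edgeR p under 0.05 was given to 4 on the lower side and 0 on the higher, against 349 and 220 of all 10456 genes. Gfi1, a repressor needed for neutrophil formation, stood at 39.2 and 43.4 CPM against 71.4 (-0.78 ± 0.16, edgeR adjusted p = 0.189). It was level in Csf1r-positive Mpo-positive cells (0.29 ± 0.27), and the difference was -1.08 ± 0.23 (adjusted p = 0.0016). Cebpa (-0.11 ± 0.18), Cebpe (0.13 ± 0.19) and Spi1 (-0.09 ± 0.19), added for their known roles after the values were seen, each differed by less than their standard error. Irf8, which favours the monocyte path, gave -0.26 ± 0.17 over the gate. In the 20, 34 and 66 late cells it was listed at 0, 3.40 and 34.9 plain CPM.

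Monocyte genes stood lower in fusion. Of 18 tested, 0 were called. In both fusion libraries 16 were below wild type and 1 above, where 32% and 32.1% of all genes did so. On the lower side 11 had an unadjusted edgeR p under 0.05, against 349 of all 10456 genes. The median was -0.63. The size of that median depended on the cells: it was -0.42 in early cells alone and -2.29 in late cells alone. Late cells numbered only 20 and 34 in fusion and 66 in wild type. Some held little Mpo: a wild-type late cell of 15995 UMIs held 2 and another of 23333 held 18. The fusion cell rich in Pf4, also late, held 67 in 78198 UMIs. The part of such cells in the late values was not tested. Ccr2, the receptor that lets monocytes leave the marrow, stood at 10.1 and 17.1 CPM against 44.97 (-1.69 ± 0.24, edgeR adjusted p = 0.0695). F13a1, coagulation factor XIII A, stood at 27.8 and 50.2 against 95.1 (-1.26 ± 0.25, adjusted p = 0.158), and Ms4a6c at 72.9 and 91.0 against 139. In Csf1r-positive Mpo-positive cells Ccr2 fell too (-1.47 ± 0.16, adjusted p = 0.00112), and the difference of the changes was -0.22 ± 0.20 (adjusted p = 0.998). The whole list of 20 genes summed to 1304, 1433 and 1736 plain CPM in the gate, against 1222, 1235 and 1379 in lymphocytes. The gate excluded cells by Csf1r, and the part of that limit in these levels was not tested.

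**Figure D4:**
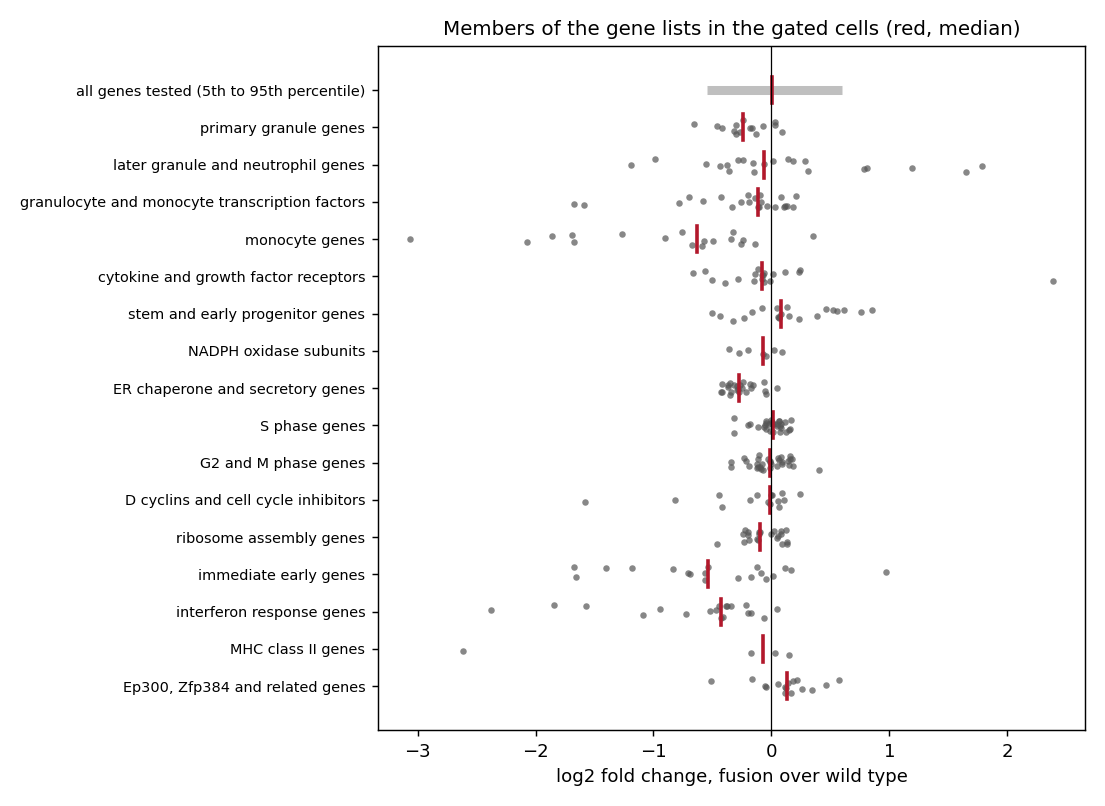
Log2 fold change, fusion over wild type (horizontal axis), of each tested member of 16 gene lists (points) with the list's median (red bar); the grey bar spans the 5th to 95th percentile of all genes. Medians run from -0.63 (monocyte genes) to 0.13 (Ep300, Zfp384 and related genes).

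Cytokine receptors and early progenitor genes held small differences. Of 19 receptors tested, 4 were above and 10 below in both fusion libraries, where 32.1% and 32% of all genes did so. Their median was -0.08. Kit, the stem cell factor receptor, stood at 88.5 and 100 CPM against 134 (-0.50 ± 0.17, edgeR adjusted p = 0.704) and Ifngr1 at 145 and 198 against 252. Csf3r, the G-CSF receptor (named after its value was seen), gave -0.08 ± 0.16. Il10ra, the interleukin 10 receptor, was higher at a low level, 10.1 and 8.27 CPM against 1.71, from 29, 32 and 14 UMIs (2.39 ± 0.45, adjusted p = 0.131). Of 21 stem and early progenitor genes, 11 were above and 4 below, with a median of 0.08; Cd34 stood at 167 and 140 CPM against 117 (0.39 ± 0.19) and Egfl7, a secreted vascular factor made by stem and progenitor cells, at 34.3 and 40.6 against 22.2 (0.76 ± 0.19). After thinning each cell to 5000 UMIs, Cd34 was seen in 41.7%, 39.9% and 36.8% of gated cells and Kit in 31.9%, 37.7% and 42.2%; unthinned, 69.0%, 66.1% and 65.1% and 78.6%, 78.7% and 86.9%. In lymphocytes at that depth the shares were 8.20%, 3.30% and 4.02% for Cd34 and 3.28%, 4.40% and 5.17% for Kit.

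Genes of the secretory route lay slightly below wild type without a call. Of 24 ER chaperone and secretory genes tested, 0 were called. In both fusion libraries 21 were below wild type and 0 above, where 32% and 32.1% of all genes did so. The median was -0.28, within a range of -0.43 to 0.04 over the members. In early cells alone the median was -0.36 and in late cells alone -0.11. Hspa5 (BiP), the main chaperone of the endoplasmic reticulum, stood at 1131 and 1124 CPM against 1453 (-0.37 ± 0.19, edgeR adjusted p = 0.949). Its change in Csf1r-positive Mpo-positive cells was -0.46 ± 0.21, not shown to differ (adjusted p = 0.998). Xbp1, the factor that drives this programme, gave -0.43 ± 0.19, Creld2 -0.42 ± 0.17 and Pdia4 -0.42 ± 0.18.

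S phase and G2 and M phase genes lay near the background, in which 32.1% of all genes were above wild type in both fusion libraries and 32% below. Of 30 S phase genes, 10 were above and 8 below with a median of 0.01, and of 32 G2 and M phase genes, 9 were above and 10 below with a median of -0.01; 0 members of either list had an unadjusted p under 0.05. D cyclins and inhibitors (15 tested, 2 above, 5 below) and ribosome assembly genes (22 tested, 7 above, 10 below) had medians of -0.01 and -0.10. Cdkn1a (p21), a brake on the cell cycle, stood at 19.1 and 14.0 CPM against 28.7 (-0.82 ± 0.23, edgeR adjusted p = 0.499). After thinning, Top2a was seen in 58.3%, 61.2% and 61.5% of gated cells and Mki67 in 56.9%, 45.9% and 48.7%; in lymphocytes of that depth both shares lay between 64.4% and 70.7%, so they mark no low background and no cycling fraction is read from them.

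Stimulus and interferon genes leaned lower, where 32.1% of all genes lay above wild type in both fusion libraries and 32% below. Of 19 immediate early genes, 2 were above and 11 below. On the lower side 9 had an unadjusted edgeR p under 0.05, against 349 of all 10456 genes. Their median was -0.53, which was -0.04 in late cells alone. Fos stood at 47.9 and 50.9 CPM against 79.7 (-0.69 ± 0.16, edgeR adjusted p = 0.278). Of 19 interferon response genes, 0 were above and 15 below with a median of -0.43 (-0.26 in early cells alone). Ifitm3, a membrane barrier to viruses, stood at 163 and 184 CPM against 241 (-0.47 ± 0.19) and Ly6e at 571 and 615 against 750. NADPH oxidase subunits (7 tested, 1 above, 5 below) had a median of -0.07; Cybb, the catalytic subunit of the oxidase, stood at 39.2 and 34.6 CPM against 47.3.

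MHC class II genes went both ways. Only 4 were tested, too few to set against the 32.1% of all genes above and 32% below. Of these 4, 2 lay above wild type in both fusion libraries and 1 below, with a median of -0.07. The lower one was Cd74, the invariant chain that accompanies class II molecules, named after its value was seen. It had 3 and 1 UMIs in the fusion gate and 31 in wild type, 20 of them in late cells (-2.61 ± 0.84, edgeR adjusted p = 0.641), while lymphocytes held 1534, 1224 and 1566 plain CPM. Of 5 plasmacytoid dendritic cell markers tested, 4 were also below wild type in both fusion libraries, down to -3.25, and 1 above. Whether a few wild-type cells carried these levels was not tested. In Csf1r-positive Mpo-positive cells Cd74 lay on the other side (2.28 ± 0.46, adjusted p = 0.0595), and the difference of the changes was -4.93 ± 0.64 (adjusted p = 5.01e-11).

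Among the genes related to the fusion itself, Ep300 (chromosome 15, 81585351 to 81652077) stood at 37.5 and 30.0 CPM in fusion and 47.8 in wild type (-0.51 ± 0.18, edgeR adjusted p = 0.786), and Zfp384 (chromosome 6, 125009145 to 125037870), the mouse counterpart of ZNF384, at 22.2, 15.3 and 15.4. Tags come from the end of a transcript, and the labels do not describe how the allele ends, so neither gene checks the labels in these cells. Of the 16 genes of this list tested, 9 were above and 1 below in both fusion libraries, where 32.1% and 32% of all genes did so.

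Against granule-rich precursors, 123 of 9998 genes differed in their response to genotype (1.23%), and against Csf1r-positive Mpo-positive cells 58 of 11117 (0.522%). Within those neighbours alone, 11 of 8859 genes (0.124%) and 49 of 11018 (0.445%) differed between genotypes. Gate genes were not removed from these counts. The 123 included Camp, Ngp, Ltf and Lcn2, whose summed share separates gate from precursors, so that limit itself entered the count. In both fits of the difference a single spread was estimated for all genes from 1 residual degree of freedom, which makes their p-values small wherever counts are high.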

How the data were processed

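The authors deposited UMI counts per gene and cell barcode for 3 droplet libraries (10x Genomics version 3.1). Per the submitters' processing notes, Cell Ranger 5.0.1 with the GRCm38 build and bcl2fastq 2.20.0.422 produced them; Cell Ranger 5.0.0 stands in the file headers. All 32285 genes in the files were read, no gene row was dropped, and no sequencing batch is given.

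Cells with at least 1000 UMIs, 400 genes and at most 10% mitochondrial UMIs were gated on raw UMIs. Doublets were predicted per library with scrublet in scanpy 1.11.5 (expected rate 0.06) and left out only as an alternative. UMIs were summed per library and tested with edgeR 4.0.16 (TMM, filterByExpr, genotype as the only term; residual degrees of freedom 1), adjusted over all genes tested; DESeq2 1.42.0 was an alternative. Differences from neighbouring populations were tested on 6 sums with terms for library, population and population by genotype. Scripts were tested on simulated data. Gated sums of 2716723 to 8385552 UMIs set the precision of each level.

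The cells, gene lists and tests were chosen with earlier results of these data known. Named genes were up to 10 per direction past adjusted p 0.05 with mean CPM of at least 20, then genes by size, then up to 6 members per list; the rule left out gate genes, predicted genes, antigen receptor, globin, ribosomal protein and mitochondrial genes, Xist and genes of the Y chromosome. Mpo, Ctsg, Cebpa, Cebpe, Spi1 and Csf3r were added for their known roles, and Cd74 for its value. Alternatives covered the filter, normalization, tool, doublets, gate, depth, stage and each fusion library left out. Positions are from GENCODE M21 and promoters from RefSeq, both GRCm38.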

Additional observations from a re-analysis of the deposited data

Results flagged for a closer look

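Among the genes named by rule or added, 28 pairs of a gene and a neighbouring population were flagged. In these the change with genotype differed between gated cells and neighbour at an adjusted p under 0.05 (edgeR, population by genotype term). Over all genes tested, with gate genes not removed, 123 of 9998 (1.23%) did so against precursors and 58 of 11117 (0.522%) against Csf1r-positive Mpo-positive cells. Many of the named genes were picked by the size of their gated change, so the 28 pairs are a description and are not set against those shares. In both fits a single spread was estimated for all genes. Values are the gated log2 change minus the neighbour's.

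Against granule-rich neutrophil precursors, Chil3 (1.23), Irf8 (0.96), Clec4a2 (0.63), Anxa1 (0.63), Fcnb (0.56), Mpo (0.49), Serpinb1a (0.36) and Wfdc21 (0.33) were more positive in the gated cells. More negative there were Ifitm1 (-1.10), Cd24a (-0.55), Nkg7 (-0.46), Ms4a3 (-0.44), Ncl (-0.43) and Ctsg (-0.36). Of the primary granule genes among these pairs, Mpo and Serpinb1a thus lay on the positive side and Nkg7, Ms4a3 and Ctsg on the negative. Outside these pairs, Prss57 (-0.53), Plac8 (-0.49) and Srgn (-0.41) of that list also passed on the negative side. No further member of it passed on the positive side. Gate and precursors were split by later granule genes, and the part of that limit in these values was not tested.

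Against Csf1r-positive Mpo-positive cells, Chil3 (1.60), Ms4a3 (0.98) and Fos (0.66) were more positive. More negative were Cd74 (-4.93, from few UMIs in the gate), Gfi1 (-1.08), Lyz2 (-0.71), Gria3 (-0.68), Wfdc21 (-0.68), Adgrg1 (-0.64), Kit (-0.57), Slpi (-0.50), Nkg7 (-0.48), Ms4a6c (-0.39) and Ctsg (-0.37). Chil3 was more positive and Nkg7 and Ctsg more negative against both neighbours, and the neighbours share their libraries with the gated cells.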

How the results depend on the processing

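The number of called genes was unstable. Against 2 genes, it was 157 with no low count filter, 1 with DESeq2, 23 without predicted doublets, 0 with Elane and Prtn3 limits of 5, 20 with a gate on shares of UMIs, 0 with the stricter cell filter, 4 with equal cells, 16 with cells thinned to 5000 UMIs, 7 in early and 29 in late cells. The alternatives chosen after seeing the data gave 18 without doublets and cells with other lineages' markers, and 0 without the cell rich in Pf4. Where 0 were called, edgeR gave 557, 451 and 495 genes at an unadjusted p under 0.05, in that order. The cause was not tested. The share ratio ran from 0.460 to 0.572 over the gate and denominator settings and from 0.417 to 0.550 with 1 fusion library left out. Counts of genes that differed from precursors (123) were 105 and 94, and from Csf1r-positive Mpo-positive cells (58) 47 and 56, with no filter and with DESeq2 size factors. Apoe ranged from 1.002 (late cells) to 2.14 and Gria3 from -2.63 to -1.86; some other sizes moved more, Ccr2 from -6.88 to -1.38, F13a1 from -3.27 to -0.92, Ccl9 from -3.14 to -0.49 and Irf8 from -3.89 to -0.08. DESeq2 did not call Gria3 (adjusted p = 0.168), and late cells did not call Apoe (adjusted p = 0.9999). List medians kept their sign in all 16 alternatives for 9 of 16 lists; that of monocyte genes was -0.92 without fusion replicate 2 and -0.54 without replicate 1, and later granule genes were 0.15 without fusion replicate 2 and -0.18 without replicate 1. Leaving out 1 fusion library leaves 1 against 1, a value with no test. No paired analysis was possible because the labels carry no replicate numbers (those used here only name the libraries) and wild type is 1 library. Genes under about 20 CPM rest on few UMIs, which limits what could be called.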
